A study of Mus musculus with 3 samples.

Results

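The genes described here make the channels that release calcium from the endoplasmic reticulum, the pumps that clear it from the cytosol and the sensor of the store. They are the IP3 receptors Itpr1, Itpr2 and Itpr3, the ryanodine receptors Ryr1, Ryr2 and Ryr3, the endoplasmic reticulum pump Atp2a2, the plasma membrane pumps Atp2b1 and Atp2b2, and the store sensor Stim2. These 10 genes were chosen by name for their roles, out of 52636 genes in the count table. RNA came from tdTomato-positive hippocampal cells of C57BL/6J male mice that carried 1 Camk2a-Cre allele and 1 Ai14 allele, at postnatal day 28 to 32, with no other treatment or genotype for comparison. Each of the 3 replicates, named CA1_Pyr_FACS, pooled 2 to 4 mice. Whole hippocampi were dissociated with papain, and live tdTomato-positive cells were sorted, so the gate rests on where Camk2a-Cre has been active and not on the CA1 field itself.

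IP3 receptors open when IP3, made by phospholipase C below receptors coupled to Gq, binds together with calcium. Ryanodine receptors are opened by cytosolic calcium itself and amplify a calcium signal. SERCA pumps, made by the Atp2a genes, return calcium to the endoplasmic reticulum, and PMCA pumps, made by the Atp2b genes, export it from the cell. STIM proteins sense a fall of calcium inside the store and open Orai channels of the plasma membrane. In CA1 pyramidal neurons, the excitatory output cells of the hippocampus, calcium released from stores in dendrites and spines is known to take part in synaptic plasticity.

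Assigned counts ranged from 15833075 to 48159841 per replicate, a 3.04-fold range, and replicate 3 had the lowest depth. Levels are given as TPM, the count divided by the gene length and scaled so that the protein-coding genes of the nuclear genome sum to 1000000 in each replicate, because they can be compared between genes of different length. All 8 markers fixed for CA1 pyramidal neurons were detected, with a median of 242 ± 8.08 TPM (SD, n = 3). Markers of dentate granule cells (median 89.6 ± 2.77 TPM, 6 of 6 detected) and CA3 pyramidal neurons (median 49.1 ± 4.48 TPM, 5 of 5 detected) were present as well (SD, n = 3). The 8 oligodendrocyte markers had a median of 60.9 ± 11.7 TPM and the 6 microglia markers one of 8.78 ± 2.42 TPM (SD, n = 3). Summed, the oligodendrocyte markers had 821, 905 and 811 TPM in replicates 1, 2 and 3, and the microglia markers 41.5, 54.0 and 63.5 TPM. The CA1 markers summed to 1842, 1951 and 1770 TPM, the dentate granule markers to 1060, 960 and 997 TPM and the CA3 markers to 962, 925 and 910 TPM. The dentate granule marker C1ql2 (621 TPM) and the CA3 marker Nptx1 (759 TPM) stood above Fibcd1 (450 TPM), the highest CA1 marker. The interneuron marker Slc32a1, which loads GABA into vesicles, had no count in 2 of 3 replicates. The part of other cells in the levels given here was not tested, and fewer cells of a type and less RNA per cell cannot be told apart in bulk samples.

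All 10 calcium genes were detected, with a CPM (counts per 1000000 assigned counts) of at least 1 in each replicate, against 57% of the 21883 protein-coding genes. Their levels spanned a wide range. Atp2b1 was the most abundant, at 886 ± 53.4 TPM, and Itpr3 the least, at 1.99 ± 0.821 TPM (SD, n = 3). The median of detected protein-coding genes was 37.6 TPM, and 7 of the 10 genes lay above it. Ryr1 lay just below, and Itpr2 and Itpr3 far below. The 10 genes together took 0.508% ± 0.0101 of all counts (SD, n = 3). Each of the 5 gene families had 1 leading paralog.

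**Figure D1:**
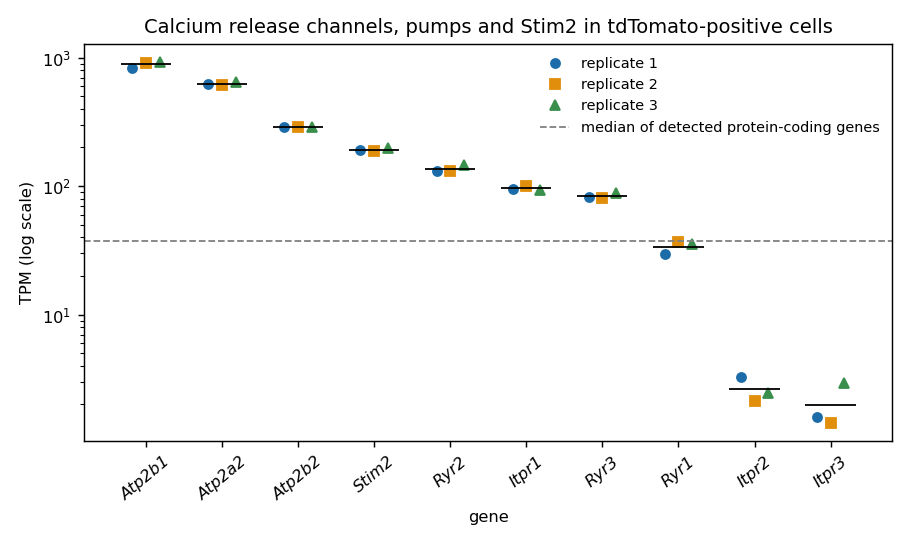
Level of each of the 10 calcium genes in TPM on a log axis, with a symbol for each replicate and a line at the mean of the 3. Pumps stand at the left, from 290 to 886 TPM, and Itpr2 and Itpr3 at the right, at 2.63 and 1.99 TPM, both below the dashed median of 37.6 TPM.

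Whether counts can be assigned to 1 paralog depends on the bases that paralogs share, so the longest runs shared by their annotated protein-coding transcripts were found. Among the IP3 receptors the longest run common to Itpr1 and Itpr3 was 29 bases. It is shown because Itpr1 was far more abundant than Itpr3, so that reads placed on the wrong gene would weigh most on Itpr3. The stretches are coding sequence, printed 5′ to 3′ on the strand of the gene in GRCm38, with the shared run in capitals and 15 bases on each side in lower case. They lie at chr6:108473595-108473653 in Itpr1 and at chr17:27113860-27113918 in Itpr3, both on the plus strand.
Itpr1: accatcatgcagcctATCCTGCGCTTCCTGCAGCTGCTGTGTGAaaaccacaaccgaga
Itpr3: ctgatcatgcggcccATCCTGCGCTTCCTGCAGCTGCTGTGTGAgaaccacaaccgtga
Of the 30 flanking bases, 23 were equal in both genes.

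The 3 ryanodine receptors share a run of 30 bases, which is the longest for Ryr3 with either paralog. It is shown because each of the 3 genes contributed to the level of the family. The stretch crosses an exon junction on the minus strand in each gene, at chr13:11558047-11558074 and chr13:11556667-11556698 in Ryr2, chr2:112635757-112635784 and chr2:112635378-112635409 in Ryr3, and chr7:29004783-29004810 and chr7:29004494-29004525 in Ryr1, in the order of transcription.
Ryr2: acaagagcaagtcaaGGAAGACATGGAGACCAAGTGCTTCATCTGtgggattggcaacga
Ryr3: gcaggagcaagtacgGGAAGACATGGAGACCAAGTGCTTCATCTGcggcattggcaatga
Ryr1: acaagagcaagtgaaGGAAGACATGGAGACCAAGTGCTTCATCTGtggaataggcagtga
Of the 30 flanking bases, 20 were equal in the 3 genes, and the longest run of Ryr1 with Ryr2 was 35 bases.

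The longest run between the plasma membrane pumps described here, Atp2b1 and Atp2b2, was 20 bases, while Atp2b2 and its paralog Atp2b3 share 56 bases. Both are shown to set the separable pair beside the closest pair. The first lies at chr10:99015690-99015695 and chr10:99016923-99016966 on the plus strand in Atp2b1, and at chr6:113759123-113759128 and chr6:113758983-113759026 on the minus strand in Atp2b2. The second lies at chr6:113789907-113789992 in Atp2b2 and at chrX:73536888-73536973 on the plus strand in Atp2b3.
Atp2b1: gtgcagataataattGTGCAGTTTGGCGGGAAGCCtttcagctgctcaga
Atp2b2: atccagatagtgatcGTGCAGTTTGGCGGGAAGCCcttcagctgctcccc
Atp2b2: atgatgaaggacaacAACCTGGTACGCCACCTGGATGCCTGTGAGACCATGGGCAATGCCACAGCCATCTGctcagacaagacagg
Atp2b3: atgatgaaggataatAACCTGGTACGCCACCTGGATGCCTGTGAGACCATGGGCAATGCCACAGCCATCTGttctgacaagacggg
Words of 31 bases shared by Atp2b2 and Atp2b3 made up 0.273% of the words of Atp2b2 and 0.541% of those of Atp2b3. Atp2a2 shares at most 44 bases with Atp2a1 and likewise 44 with Atp2a3, and Stim2 at most 15 with Stim1. Each run is shorter than the sequenced reads, and words of 31 bases shared with any single paralog made up at most 0.273% of the words of each of the 10 genes. Words shared with any other gene, on either strand, reached 6.31% in Atp2a2, chiefly with Gm30970 (260 words). They made up 2.52% in Atp2b1, chiefly with Gm29808 (235 words). How reads that fit more than 1 gene were counted is not given in the sources used here.

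Itpr1, the main IP3 receptor of principal neurons in the brain, was the leading gene of the release channels gated by IP3. Itpr1 (ENSMUSG00000030102.11) lies at chr6:108213096-108551109 on the plus strand, with 64 merged exons. It had 95.3, 99.8 and 93.7 TPM in replicates 1, 2 and 3, a mean of 96.3 ± 3.17 TPM (SD, n = 3). The replicates differed little, and the level was higher than that of 79.3% of detected protein-coding genes.

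Itpr2, best known as the IP3 receptor of astrocytes and heart, was near the bottom of the detected genes. Itpr2 (ENSMUSG00000030287.15) lies at chr6:146108299-146502223 on the minus strand and had 407, 140 and 94 counts in replicates 1, 2 and 3. These gave 3.30, 2.14 and 2.46 TPM, a mean of 2.63 ± 0.597 TPM (SD, n = 3). Replicate 1 was the highest, and its 95% exact Poisson interval of 2.98 to 3.63 TPM did not overlap that of replicate 2, 1.80 to 2.53 TPM. Such intervals cover counting error only, since reads amplified by PCR without molecular identifiers are not independent molecules. The coefficient of variation (CV, SD over mean) of the normalised count was 25.2%, against 8.21% from counting alone, and it was 6.10% without replicate 1. The summed level of the 7 astrocyte markers was 260, 162 and 327 TPM in replicates 1, 2 and 3. Replicate 2 was thus the lowest for both Itpr2 and the astrocyte list, but the highest replicate was not the same. Of the 7 astrocyte markers, 2 were highest in replicate 1, as Itpr2 was. Of the 8 oligodendrocyte markers, 5 were highest in replicate 1, but their sum was highest in replicate 2, at 821, 905 and 811 TPM. The part of astrocyte or oligodendrocyte RNA in Itpr2 was not tested.

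Itpr3, the IP3 receptor best known from epithelial and secretory cells, had the lowest level of the 10 genes. Itpr3 (ENSMUSG00000042644.8) lies at chr17:27057304-27122223 on the plus strand and had 120, 57 and 68 counts in replicates 1, 2 and 3. These gave 1.60, 1.44 and 2.93 TPM, a mean of 1.99 ± 0.821 TPM (SD, n = 3). Replicate 3 was high, with an interval of 2.28 to 3.72 TPM that lay above those of replicates 1 (1.33 to 1.91 TPM) and 2 (1.09 to 1.86 TPM). The CV was 37.3%, higher than that of 97.8% of detected protein-coding genes, and it was 9.63% without replicate 3. Markers of vessel cells and of some other cell types, though not all, were high in the same replicate. The 6 endothelial markers summed to 14.1, 28.8 and 89.6 TPM in replicates 1, 2 and 3, and the 6 mural markers, of pericytes and smooth muscle, to 16.3, 21.1 and 76.9 TPM. All 12 of these markers were highest in replicate 3, and 4 of the 6 endothelial and 3 of the 6 mural markers were detected. Cldn5, a tight junction protein that defines brain endothelium, had 5.85, 10.6 and 49.4 TPM, while the mural marker Kcnj8 had no count in replicate 2. The astrocyte list, at 260, 162 and 327 TPM, and the microglia list, at 41.5, 54.0 and 63.5 TPM, also summed highest in replicate 3, with 5 of 7 and 5 of 6 markers highest there. The interneuron list summed highest there too, at 93.7, 72.5 and 115 TPM, with 4 of 6 markers highest in that replicate and 2 detected. The oligodendrocyte list went the other way, at 821, 905 and 811 TPM, with 1 of 8 markers highest in replicate 3. The part of any of these cells in the level of Itpr3 was not tested. Of the exon bases of Itpr3, 2.60% overlap other genes, chiefly the antisense gene Itpr3os, which had no count in any replicate.

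**Figure D2:**
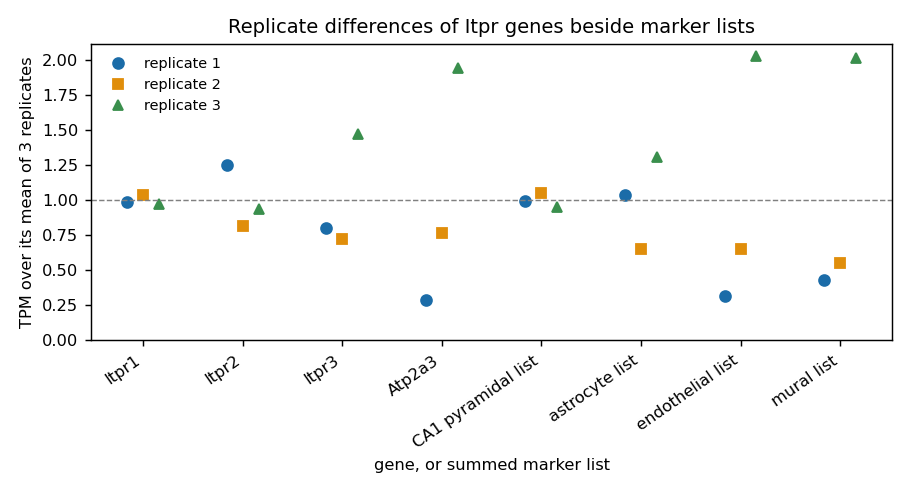
TPM of each replicate divided by the mean of the 3 replicates, for the IP3 receptor genes, Atp2a3 and the summed marker lists, on a linear axis from 0. Replicate 3 stands highest for Itpr3, Atp2a3 and the astrocyte, endothelial and mural lists, and replicate 1 for Itpr2. The replicates of Itpr1 and the CA1 list lie close to 1.

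Itpr1 thus made up most of the IP3 receptor RNA. It took 95.4% ± 1.02 of the summed TPM of the family, against 2.62% ± 0.621 for Itpr2 and 1.98% ± 0.853 for Itpr3 (SD, n = 3). Itpr1 was 28.9, 46.6 and 38.1 times as high as Itpr2 in replicates 1, 2 and 3, and 59.5, 69.5 and 32.0 times as high as Itpr3. With the longest annotated transcripts the mean ratio to Itpr3 was 99.6 ± 36.1, against 53.7 ± 19.5 with the merged exons, and the share of Itpr3 was 1.09% ± 0.473 (SD, n = 3). The order of Itpr2 and Itpr3 was not settled. Their difference in log2(TPM + 1) was 0.30 ± 0.46 (SD, n = 3), with Itpr2 higher in 2 of 3 replicates (p = 0.5, exact sign-flip permutation test, two-sided).

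Ryr2, the calcium-gated release channel known from heart and the most widespread form in brain, led the ryanodine receptors. Ryr2 (ENSMUSG00000021313.16) lies at chr13:11553102-12106945 on the minus strand, with 107 merged exons. It had 131, 131 and 145 TPM in replicates 1, 2 and 3, a mean of 136 ± 8.27 TPM (SD, n = 3). Replicates 1 and 2 lay together and replicate 3 slightly above. Ryr2 drew 31439 counts in replicate 1, close to the 31855 of Atp2a2, but its merged exons span 28790 bp, against 6081 bp in Atp2a2, so that its TPM was lower.

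Ryr3, a form known from hippocampus and other brain regions and from developing muscle, was the second of the family. Ryr3 (ENSMUSG00000057378.15) lies at chr2:112631355-113217096 on the minus strand. It had 82.3, 81.5 and 87.7 TPM, a mean of 83.8 ± 3.38 TPM (SD, n = 3). Its CV of 1.59% was the lowest of the 10 genes, close to the 1.23% that counting alone gives. Of its exon bases, 4.83% overlap Aven, a gene on the other strand with 566, 312 and 190 counts. Whether strand was used in counting is not given in the sources used here, so reads in the overlap cannot be told apart.

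Ryr1, the release channel of skeletal muscle, where it is gated by the membrane voltage through the dihydropyridine receptor, was also present. Ryr1 (ENSMUSG00000030592.18) lies at chr7:29003344-29125179 on the minus strand. It had 29.6, 36.7 and 35.2 TPM, a mean of 33.8 ± 3.75 TPM (SD, n = 3). Replicate 1 was the lowest, and the CV of 9.64% was above the median of 8.75% over detected protein-coding genes. Of its exon bases, 4.19% overlap other genes, chiefly the antisense gene Gm26604 with 48, 38 and 13 counts.

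All 3 ryanodine receptors therefore contributed to the family, unlike the IP3 receptors. Ryr2 took 53.5% ± 0.894, Ryr3 33.1% ± 0.660 and Ryr1 13.4% ± 1.29 of the summed TPM (SD, n = 3). Ryr2 was 1.62 ± 0.0335 times as high as Ryr3 and 4.04 ± 0.439 times as high as Ryr1 (SD, n = 3). The ratio of Ryr2 to Ryr3 hardly moved between replicates, lying at 1.59, 1.60 and 1.65, but it was 2.45 ± 0.0509 in counts without length (SD, n = 3). With the length of the longest annotated transcript in place of the merged exons, the share of Ryr2 was 60.6% ± 0.929 (SD, n = 3). The order of the 3 genes was the same under both lengths.

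The ryanodine receptors together had a higher level than the IP3 receptors. Their sum was 253 ± 13.2 TPM, against 101 ± 2.23 TPM for the IP3 receptors, a ratio of 2.51 ± 0.167 (SD, n = 3). The ratio was 2.42, 2.41 and 2.70 in replicates 1, 2 and 3, so the direction was the same in each. It was 2.08 ± 0.150 with the longest transcripts (SD, n = 3). Between the leading paralogs the gap was smaller, with Ryr2 at 1.41 ± 0.124 times the level of Itpr1 (SD, n = 3).

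**Figure D3:**
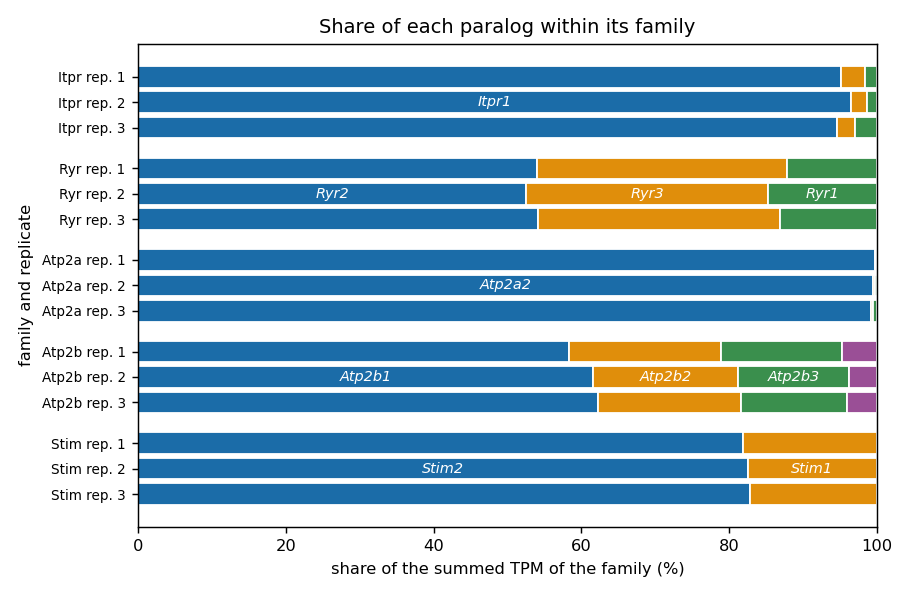
Share of each paralog in the summed TPM of its family, in percent, with 1 bar for each replicate. In the Itpr bars the 2 unlabelled pieces are Itpr2 and then Itpr3, in the Atp2a bars the thin ends are Atp2a1 and Atp2a3, and in the Atp2b bars the last piece is Atp2b4. Itpr1 takes 95.4% and Atp2a2 99.5% on average, while the Ryr and Atp2b bars are divided among several genes.

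Atp2a2 encodes SERCA2, the calcium pump of the endoplasmic reticulum in most cells outside skeletal muscle. Atp2a2 (ENSMUSG00000029467.15) lies at chr5:122453513-122502225 on the minus strand. It had 628, 612 and 642 TPM in replicates 1, 2 and 3, a mean of 627 ± 15.0 TPM (SD, n = 3). The 3 replicates were close, with a CV of 2.93%, and the level exceeded that of 98.7% of detected protein-coding genes.

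The other SERCA genes did not pass the detection threshold. Atp2a1, the fast skeletal muscle form, had 35, 30 and 22 counts and 1.87 ± 0.627 TPM (SD, n = 3), and 21.9% of its exon bases overlap Rabep2 on the other strand. Atp2a3, the form of blood, endothelial and other non-muscle cells, had 19, 27 and 40 counts in replicates 1, 2 and 3. These gave 0.431, 1.16 and 2.94 TPM, and replicate 3 was the highest, as for Itpr3. The summed endothelial, mural, astrocyte, microglia and interneuron markers were highest there too, while the summed oligodendrocyte markers were not. The part of any of these cells in the level of Atp2a3 was not tested. Atp2a2 took 99.5% ± 0.287 of the summed TPM of the SERCA genes (SD, n = 3).

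Atp2b1 encodes PMCA1, the most widespread plasma membrane calcium pump, and was the most abundant of the 10 genes. Atp2b1 (ENSMUSG00000019943.10) lies at chr10:98914406-99026143 on the plus strand. It had 825, 909 and 924 TPM in replicates 1, 2 and 3, a mean of 886 ± 53.4 TPM (SD, n = 3). Replicate 1 was the lowest, and 88 detected protein-coding genes had a higher mean. The gene length matters here. The merged exons span 15218 bp, against 7130 bp in the longest transcript, and with the latter length the level was 1459 ± 80.8 TPM (SD, n = 3).

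Atp2b2 encodes PMCA2, a fast pump known from neurons and hair cells. Atp2b2 (ENSMUSG00000030302.16) lies at chr6:113743831-114042613 on the minus strand. It had 290.2, 290.4 and 289.4 TPM in replicates 1, 2 and 3, with an SD of 0.549 TPM (n = 3), the smallest of the 10 genes. On the scale of normalised counts its CV was 3.92%, so the closeness of the 3 values belongs to the TPM scale.

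All 4 plasma membrane pump genes were detected. Atp2b1 took 60.7% ± 2.05 of their summed TPM and Atp2b2 19.9% ± 0.561 (SD, n = 3). Atp2b3, which encodes the neuronal PMCA3, took 15.2% ± 1.10 with 222 ± 10.1 TPM (SD, n = 3). Atp2b4, which encodes PMCA4, took 4.19% ± 0.462 with 61.0 ± 5.23 TPM (SD, n = 3). Atp2b1 was 3.05 ± 0.187 times as high as Atp2b2, and 4.59 ± 0.280 times with the longest transcripts (SD, n = 3). With these lengths the shares were 72.8% ± 1.64 for Atp2b1, 15.9% ± 0.632 for Atp2b2, 8.89% ± 0.745 for Atp2b3 and 2.46% ± 0.298 for Atp2b4 (SD, n = 3). The order of the 4 genes was the same under both.

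The plasma membrane pumps together exceeded the pumps of the endoplasmic reticulum. Their sum was 1459 ± 39.3 TPM, against 631 ± 16.1 TPM for the Atp2a genes, a ratio of 2.31 ± 0.0791 (SD, n = 3). The ratio lay at 2.24, 2.40 and 2.30 in the 3 replicates. It was 3.84 ± 0.163 with the longest transcripts and 4.95 ± 0.206 in counts without length, both shifts of over 1.5 times (SD, n = 3). All pump genes together stood at 5.90 ± 0.0795 times the summed level of the 6 release channel genes (SD, n = 3). This ratio was 5.77 ± 0.0567 with the longest transcripts and 2.83 ± 0.0451 in counts without length (SD, n = 3). It compares RNA levels and not calcium flux.

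Stim2 encodes the store sensor that responds to small falls of luminal calcium and was the leading STIM gene. Stim2 (ENSMUSG00000039156.19) lies at chr5:53998499-54121057 on the plus strand, and no exon base of it overlaps another gene. It had 191, 188 and 199 TPM in replicates 1, 2 and 3, a mean of 193 ± 5.99 TPM (SD, n = 3). The replicates were close, with a CV of 2.05%. Stim1, the paralog that responds to deeper loss of luminal calcium, had 41.2 ± 1.36 TPM, and Stim2 took 82.4% ± 0.514 of their sum (SD, n = 3). Stim2 was 4.68 ± 0.164 times as high as Stim1, but 2.05 ± 0.0717 times with the longest transcripts, because the merged exons of Stim1 are long (SD, n = 3). The direction was the same under both lengths.

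In the order of mean TPM, 8 of 9 neighbouring pairs differed in the same direction in each of 3 replicates and by more than the SD of the difference. The exact sign-flip permutation test gave a two-sided p = 0.25 for each of these pairs, the smallest that this test can give with 3 replicates. The order came from the same 3 replicates, so the test is no independent check of it. Among the pumps, Atp2b1 exceeded Atp2a2 by 0.50 ± 0.09 in log2(TPM + 1), and Atp2a2 exceeded Atp2b2 by 1.11 ± 0.04 (SD, n = 3). Atp2b2 in turn exceeded Stim2 by 0.59 ± 0.05 (SD, n = 3). Among the 10 genes the pumps thus stood above the sensor and the channels. Of the other pump genes, Atp2b3 did so too, at 222 TPM, while Atp2b4, Atp2a1 and Atp2a3 did not, at 61.0, 1.87 and 1.51 TPM. Among the channels, Ryr2 exceeded Itpr1 by 0.49 ± 0.12, Itpr1 exceeded Ryr3 by 0.20 ± 0.10 and Ryr3 exceeded Ryr1 by 1.29 ± 0.16 (SD, n = 3). Ryr1 stood 3.27 ± 0.39 above Itpr2, the widest gap in the order (SD, n = 3). Stim2 exceeded Ryr2 by 0.51 ± 0.04, but the sign turned with the longest transcripts, where Stim2 minus Ryr2 was -0.21 (SD, n = 3). The place of these 2 genes relative to each other therefore depends on the gene length. The gap of Itpr1 over Ryr3 also grew with these lengths, with a ratio of 1.74 ± 0.118 in place of 1.15 ± 0.0783 (SD, n = 3).

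**Figure D4:**
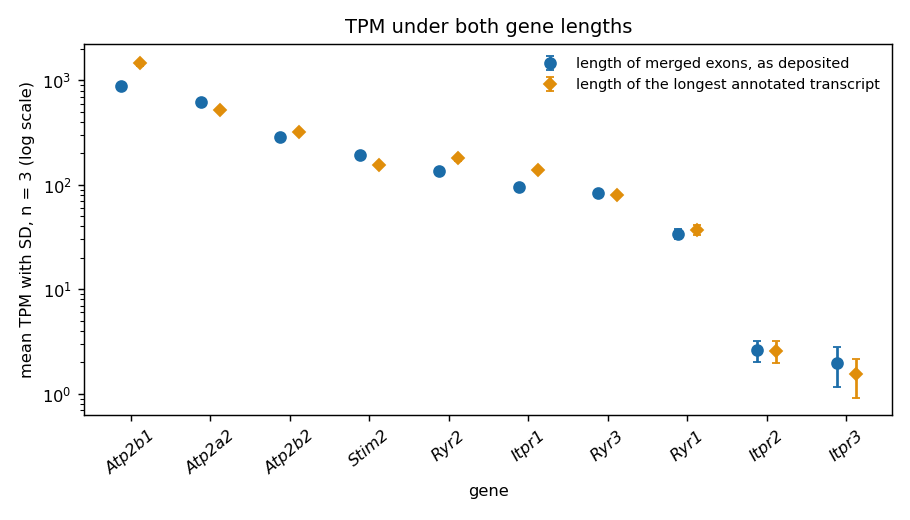
Mean TPM of the 10 genes with the deposited length of the merged exons (circles) and with the length of the longest annotated transcript (diamonds), on a log axis, with SD bars over 3 replicates that are smaller than the symbols for most genes. Stim2 stands below Ryr2 under the second length (155 against 179 TPM), and Atp2b1 at 1459 TPM.

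The replicates of most of the 10 genes lay close together. For 7 of them the CV of the normalised count lay under 8.75%, the median over detected protein-coding genes. That of Ryr1, 9.64%, was higher than in 56.1% of these genes. Itpr2 and Itpr3, which also had the fewest counts, had CVs of 25.2% and 37.3%. These were higher than in 93.2% and 97.8% of detected protein-coding genes.

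Other genes of calcium handling were read from 11 lists. Of the 68 genes measured, 58 (85.3%) were detected, against 57% of the 21883 protein-coding genes. The median of mean TPM over all 68, detected or not, was 49.6. IP3 production was led by Gnaq, the G protein alpha subunit that activates phospholipase C, at 396 ± 23.5 TPM, and ended with the phospholipase Plcb2 at 1.56 ± 0.256 TPM (SD, n = 3). All 8 genes of that list were detected. Among partners of the IP3 receptors, Itpka, a neuronal kinase that phosphorylates IP3, reached 1026 ± 71.5 TPM and was the highest of the 68 genes (SD, n = 3). Itpripl1 had 12, 3 and 1 counts, Car8, which lowers the affinity of the receptor for IP3, had 13, 2 and 1, and Mrvi1, a partner in smooth muscle, had 6, 1 and 2. These 3 were the members of the list of 11 that were not detected.

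Partners of the ryanodine receptors were led by Fkbp1a, the FKBP12 protein that stabilises the closed channel, at 785 ± 20.5 TPM (SD, n = 3). Of this list of 8, the genes not detected were Jph2, the junctophilin of heart, with 17, 1 and 4 counts, and Trdn, the junctional protein triadin of muscle, with 32, 31 and 18 counts. The neuronal junctophilin gene Jph3, which ties the endoplasmic reticulum to the plasma membrane, had 289 ± 9.36 TPM (SD, n = 3). In the store-operated entry list all 6 genes were detected, from Saraf, an inhibitor of the process, at 290 ± 17.5 TPM to the channel gene Orai1 at 7.57 ± 2.50 TPM (SD, n = 3). Orai2, the channel subunit with the highest level, had 286 ± 10.5 TPM, and Stim2 stood at 0.674 ± 0.0253 of it (SD, n = 3).

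Pln and Sln, the small regulators of SERCA on the lists, were scarce beside Atp2a2, and other small regulators were not read. Pln, phospholamban, the inhibitor known from heart, had 3.96, 5.17 and 9.13 TPM, and 64.7% of its exon bases overlap other genes. Sln, sarcolipin, had 11, 0 and 0 counts in replicates 1, 2 and 3. Among partners of the plasma membrane pumps, Nptn, which encodes the auxiliary subunit neuroplastin, had 682 ± 43.4 TPM, and all 4 genes of that list were detected (SD, n = 3).

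Of the exchangers that clear calcium in exchange for sodium, all 6 were detected. Slc8a2, the NCX2 exchanger of brain, had 842 ± 42.5 TPM and Slc8a3 the lowest level with the deposited lengths, 18.4 ± 0.410 TPM (SD, n = 3). The level of Slc8a1, the NCX1 exchanger, depends on its length, which is 2934 bp as deposited and 18464 bp in the longest transcript. It had 64.4 ± 8.79 TPM with the first and 7.89 ± 1.06 TPM with the second, where Slc8a3 had 15.4 ± 0.288 TPM (SD, n = 3). Atp2b1 stood at 1.06 ± 0.112 times the level of Slc8a2, with the ratio on both sides of 1 among replicates, at 0.937, 1.07 and 1.16 (SD, n = 3). With the longest transcripts it was 2.25 ± 0.240 (SD, n = 3). The pumps of the secretory pathway were Atp2c1 at 115 ± 6.56 TPM and Atp2c2 at 3.17 ± 0.885 TPM, both detected (SD, n = 3). Of the exon bases of Atp2c1, 18.9% overlap Aste1 on the other strand.

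In the mitochondrial list 7 of 8 genes were detected, from Smdt1, the EMRE subunit of the uniporter, at 169 ± 2.55 TPM (SD, n = 3), with 22.7% of its exon bases in an overlap with Pheta2. The exception was Slc8b1, the exchanger that lets calcium out of mitochondria, with 37, 19 and 11 counts. Of 7 luminal calcium-binding and chaperone genes of the endoplasmic reticulum, 6 were detected, led by Calr, calreticulin, at 527 ± 57.8 TPM (SD, n = 3). Casq2, the calsequestrin of heart, had 6, 2 and 6 counts. Lysosomal and leak channels ranged from Mcoln1, the lysosomal channel TRPML1, at 70.6 ± 4.98 TPM to the two-pore channel gene Tpcn2 at 4.31 ± 1.13 TPM, and all 4 were detected (SD, n = 3).

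**Figure D5:**
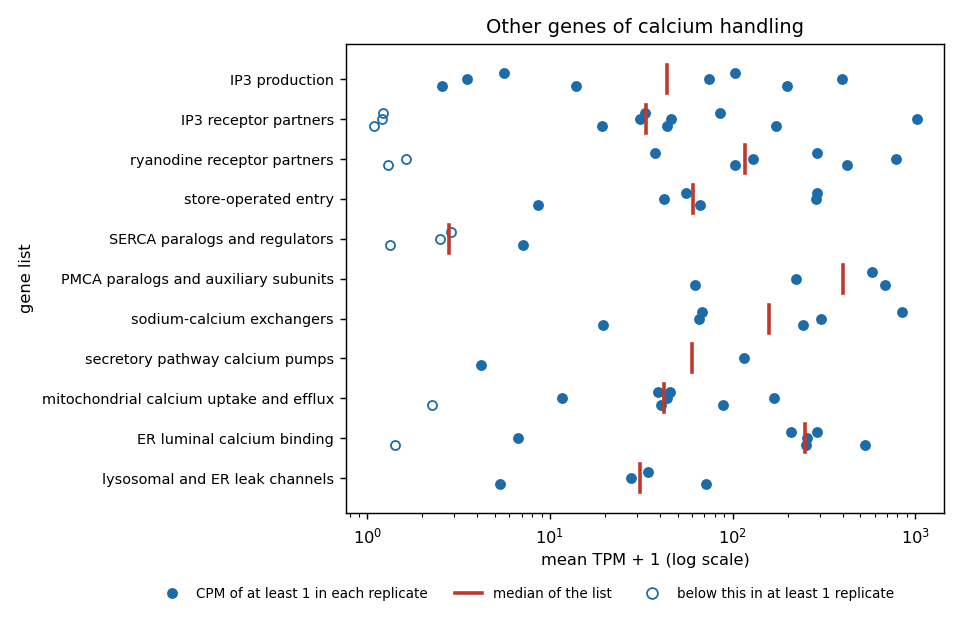
Mean TPM + 1 of the 68 other calcium genes on a log axis, in 11 lists, with filled circles for the 58 detected genes, open circles for the other 10 and a red line at the median of each list. The SERCA list, which leaves out Atp2a2, has the lowest median, 1.78 TPM. The list of plasma membrane pump paralogs and auxiliary subunits such as Nptn, which leaves out Atp2b1 and Atp2b2, has the highest, 400 TPM.

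For each of the 10 genes, the gene of these lists nearest in level was taken as the one with the smallest root mean square difference in log2(TPM + 1) over 3 replicates, out of 68. Among the pumps these were Slc8a2 for Atp2b1 (0.15), Nptn for Atp2a2 (0.13) and Jph3 for Atp2b2 (0.04). For the sensor Stim2 it was Hspa5, the chaperone BiP (0.14). Among the ryanodine receptors they were Fkbp1b, the FKBP12.6 protein, for Ryr2 (0.14), Homer1, a postsynaptic scaffold, for Ryr3 (0.06) and Tmco1, a channel of the endoplasmic reticulum, for Ryr1 (0.06). Among the IP3 receptors they were the phospholipases Plcb1 for Itpr1 (0.14) and Plcb4 for Itpr2 (0.21), and Atp2a1 for Itpr3 (0.24). The measure compares levels over 3 libraries and says nothing of shared control.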

How the data were processed

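The authors aligned paired-end poly(A) RNA-seq reads and deposited raw counts per gene with the merged exon length. Per the labels' processing notes the tools were STAR and featureCounts on GRCm38 (mm10). Their versions, the strand setting and the annotation release for these libraries are not given in the sources used here, and GENCODE vM15 is named in the study's methods for its TRAP counts alone. Gene names and biotypes came from GENCODE vM21, which named 52489 of 52636 genes. TPM was computed over nuclear protein-coding genes, because a noncoding feature of 57 bp took 32.7%, 48.3% and 40.5% of TPM over all genes in replicates 1, 2 and 3. CV used median-of-ratios normalised counts. With 1 condition there was no comparison between groups. Differences between genes within a replicate were tested by an exact sign-flip permutation test on log2(TPM + 1). Intervals are 95% exact Poisson. Alternatives were the TPM total, unit (TMM from edgeR 4.0.16 in R 4.3.3), length, pseudocount (0.1), background, threshold and leaving out each replicate. Size factors and shared runs were tested on simulated data. Named genes were the 10 genes, their paralogs, the highest, lowest and undetected gene of each list, and the nearest genes. The genes and lists were chosen with earlier results of these data known. Jph3 was named as a nearest gene, and Orai2 and Slc8a1 were chosen after their values were seen. Replicates are labelled as separate samples. Python 3.11.15, numpy 2.4.6, scipy 1.17.1 and pandas 2.3.3 were used.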

Additional observations from a re-analysis of the deposited data

How the results depend on the processing

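Of 353 alternative values for 67 results, 238 stayed within the spread between replicates or, for counts of genes, within 1.5 times the count, 113 moved by more and 2 turned in sign. The 2 that turned were the log2 difference of Stim2 minus Ryr2, at -0.21 with the longest transcripts and -1.97 with CPM without length. The median level of the 10 genes was 115.9 TPM. It became 36.4 as TPM over all genes, 19.6 as RPKM, 526 as normalised count per kb, 19.6 as TMM-scaled CPM per kb and 146 TPM with the longest transcripts, the first 4 being changes of unit or total. The share of Itpr1 was 96.9% without length and 97.1% with the longest transcripts. The median percentile of the 10 genes was 82.8, and 87.8 among genes with a count in any replicate. The median over lists was 50.2 TPM, and 39.6 as a mean of logs. Leaving out each replicate in turn gave a median CV of 3.45% to 5.06%, a median level of 114 to 117 TPM, a share of Itpr1 of 94.8% to 95.8% and 10 detected genes each time. For levels, shares and log2 differences, leaving out 1 of 3 replicates moves the mean by less than the SD. These alternatives could not count as moved, and they are part of the 238. Detected genes could not become undetected either, because fewer replicates then had to reach the threshold. No paired analysis was possible because there is 1 group, so replicate numbers pair no samples across groups. The exact sign-flip permutation test cannot go below p = 0.25 with 3 replicates. Itpr2 and Itpr3 rested on 57 to 407 counts, from which counting alone gives a CV of 8.21% and 11.6%, below the CV observed.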
